A study of Mus musculus with 6 samples.

Results

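The genes described here form the redox axis around Nox4 and Nrf2 in primary mouse renal tubule epithelial cells (RTECs). The 10 members were chosen by symbol: the oxidase genes Nox4 and Cyba, the regulator genes Nfe2l2 and Keap1, and the Nrf2 target genes Hmox1, Nqo1, Gclc, Gclm, Txnrd1 and Srxn1. All 10 were found among the 46517 genes counted, and all 10 had enough reads to be among the 15862 genes tested. Polyadenylated RNA was sequenced from 3 control cultures (CTL) and 3 cultures given 50 ng/ml TGF-β1, a cytokine that drives fibrosis, to learn how it changes tubule cells. All 6 cultures were grown from kidneys of wild type FvB mice aged 4 to 6 weeks and spent 24 h without serum, after which the treated cultures received TGF-β1 for 24 h. The age is that of the labels; the study's methods give a slightly younger range and only males. No transgene or deletion was carried by either group. The cells were grown from whole-kidney suspensions in medium with serum and EGF, so the cultures can hold more than 1 cell type, and a lower number of cells of a type and less RNA per cell cannot be told apart. Nothing in the labels says whether the cultures of a group came from separate animals, so p-values measure the spread between these cultures.

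NOX4 is an oxidase of the kidney tubule that releases hydrogen peroxide, and it sits in membranes together with p22phox, the protein made from Cyba. Unlike the phagocyte oxidase it needs no cytosolic activator subunits, so its output is thought to follow its amount. Nrf2, the protein of Nfe2l2, is held in the cytosol and sent for degradation by KEAP1. When oxidants or electrophiles modify KEAP1, Nrf2 accumulates, pairs with small Maf proteins and binds antioxidant response elements in front of genes for glutathione synthesis, thioredoxin recycling, quinone reduction and heme breakdown. Much of this control acts on the Nrf2 protein, which RNA sequencing does not measure.

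The libraries held 28313080 to 34183497 counts on genes, and 3 counts corresponded to 0.0878 to 0.106 CPM, which sets the reads of a gene against the total of its library. Transcripts that TGF-β1 is known to induce were higher in the treated cultures, with log2 fold changes of 0.55 for Smad7, 0.76 for Skil and 1.04 for Fn1 (adjusted p = 0.014, 0.00379 and 0.00379, edgeR). Of 8 markers of tubule epithelium, 8 reached 1 CPM, and their sum was 1144 to 2911 CPM in CTL and 923 to 2287 CPM after TGF-β1. Segment markers were low: 3 of 7 for proximal tubule, 0 of 5 for thick limb and distal tubule, and 0 of 5 for collecting duct reached 1 CPM. Fibroblast markers reached 1 CPM for 5 of 6 genes and summed to 822 to 2161 CPM in CTL and 753 to 2304 CPM after TGF-β1. Col1a1 and Col3a1 made up most of this sum. At an adjusted p under 0.05, 0 of 5 tested fibroblast markers differed (edgeR). With the replicate number as a block in the fit, Col1a1 was higher and Pdgfrb and Dcn were lower. Their log2 fold changes without the block were 0.36, -0.91 and -1.10. The replicate 2 cultures of both groups stood apart from the other 4. Their summed fibroblast markers were 2161 to 2304 CPM against 753 to 1009 CPM, their tubule epithelium markers 923 to 1144 CPM against 1837 to 2911 CPM, and their Y-linked transcripts 136 to 154 CPM against 0.0627 to 0.177 CPM. Y-linked transcripts near 0 in 4 cultures go against a description of the mice as males. Xist, a transcript of female cells, was at 510 to 652 CPM in these 4. It was at 243 CPM in CTL replicate 2 and 198 CPM in TGF-β1 replicate 2. The replicate 2 cultures thus held both Y-linked transcripts and Xist, and whether they mixed animals of both sexes was not tested. Cultures with the same replicate number deviated together from their group means, least clearly for replicate 1, although the study describes no pairing. Each result that changes is therefore also given with the replicate number as a block in the fit.

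Of the 10 genes, 1 rose and 2 fell with TGF-β1 at an adjusted p of less than 0.05 (edgeR). Nox4 rose by 31.8%, while Nfe2l2, encoding Nrf2, fell by 28.0% and Gclc, the catalytic subunit of glutathione synthesis, fell by 39.7%. Across all tested genes the same threshold called 11.7%, with 5.00% higher and 6.69% lower. With the replicate block, 2 of the 10 rose (Nox4 and Hmox1) and 5 fell (Nfe2l2, Gclc, Nqo1, Cyba and Txnrd1), against a background of 34.2%, with 15.1% higher and 19.1% lower. Without both replicate 2 cultures, again 1 was higher (Nox4) and 2 were lower, which were then Nfe2l2 and Nqo1, while 14.9% of all genes tested in that fit were called, 6.79% higher and 8.09% lower. The median log2 fold change of the 10 was -0.16, and that of all tested genes was -0.0028. The normalized counts of CTL and TGF-β1 cultures did not overlap for 7 of the 10 genes, against 35.1% of all tested genes. Since the 10 genes were chosen with earlier results of these data known, their shares do not test for enrichment.

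**Figure D1:**
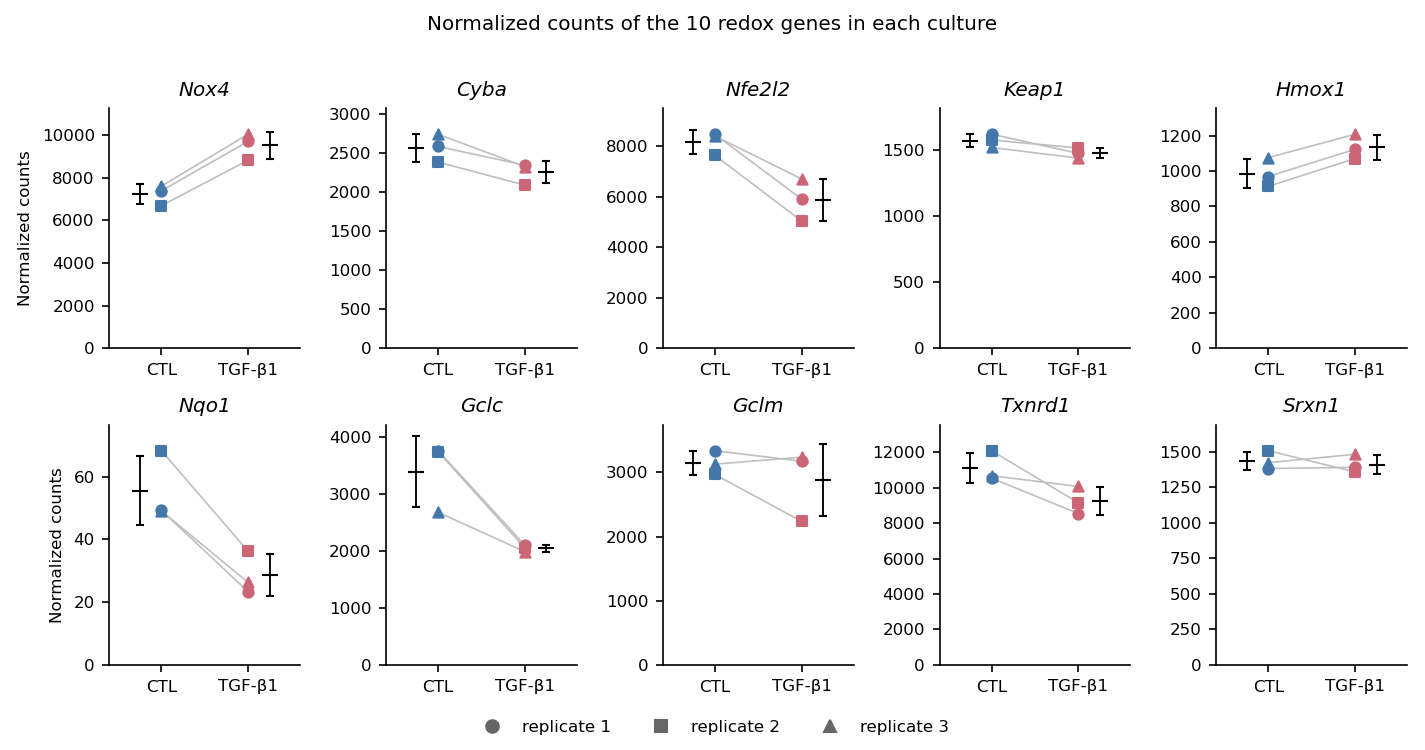
Normalized counts (vertical axes, starting at 0) of each gene in the 3 CTL and the 3 TGF-β1 cultures, with lines joining cultures of the same replicate number and bars giving the mean ± SD. Nox4 was higher in each treated culture (8824 to 10046) than in each CTL culture (6693 to 7608), Nfe2l2, Gclc and Nqo1 were lower in each treated culture, and Hmox1, Gclm and Srxn1 overlapped between groups.

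Nox4 (ENSMUSG00000030562.15) lies on the plus strand of chromosome 7 from 87246096 to 87398710 (GRCm38), and its annotated exons cover 8471 bp. It had 7391, 6693 and 7608 normalized counts in CTL replicates 1, 2 and 3, and 9710, 8824 and 10046 in TGF-β1 replicates 1, 2 and 3. Normalized counts are reads scaled to a common effective library size. Every treated culture was above every CTL culture, and replicate 2 was the lowest culture of each group. The mean went from 7230 ± 478 (SD, n = 3) to 9527 ± 631 (SD, n = 3), a log2 fold change of 0.40 (standard error, SE, 0.07, adjusted p = 0.025, edgeR). The log2 ratios within same-numbered cultures were 0.39, 0.40 and 0.40 for replicates 1, 2 and 3. This even shift gave an adjusted p of 0.000278 once the block was fitted (edgeR). Without the block the call was lost when CTL replicate 1, CTL replicate 2, TGF-β1 replicate 1 or TGF-β1 replicate 3 was left out (adjusted p = 0.106, 0.0556, 0.0994 and 0.0714, edgeR). With libraries scaled by their totals only, the Nox4 log2 fold change was 0.32 and the adjusted p-value 0.0508 (edgeR).

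Cyba (ENSMUSG00000006519.10), on the minus strand of chromosome 8 from 122424776 to 122432930, encodes the p22phox partner that stabilizes NOX4. Its normalized counts were 2586, 2385 and 2742 in CTL replicates 1, 2 and 3 and 2344, 2090 and 2327 after TGF-β1. The highest treated culture lay just under the lowest CTL culture, so the groups did not overlap. The CTL mean was 2571 ± 179 (SD, n = 3) and the treated mean 2254 ± 142 (SD, n = 3), a log2 fold change of -0.19 (SE 0.07, adjusted p = 0.15, edgeR). The block gave an adjusted p of 0.0124 (edgeR), and Cyba was lower in all 3 same-numbered pairs, at log2 ratios of -0.14, -0.19 and -0.24. Nox4 and its partner thus had log2 fold changes of opposite sign.

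The ratio of Nox4 to Cyba within a culture does not depend on how libraries are scaled. Per kb of exon, its log2 value was -1.51, -1.54 and -1.56 in CTL replicates 1, 2 and 3 and -0.98, -0.95 and -0.92 after TGF-β1. The 3 cultures of each group lay close together and the groups were far apart. The linear ratio of Nox4 to Cyba in counts per kb of exon went from 0.345 in CTL to 0.518 after TGF-β1. Its level rests on the length of all annotated exons, not of the transcripts expressed, so it is not a count of transcripts. The difference was 0.59 on the log2 scale (two-sided exact permutation test, p = 0.1, adjusted p = 0.15 over the 3 ratios tested), and 3 cultures against 3 cannot give a p-value under 0.1. Without division by exon length, the log2 ratio of reads was 1.49 in CTL and 2.08 after TGF-β1, since the Cyba exons cover only 1039 bp, and the difference between groups was the same.

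The other NADPH oxidase genes were sparse. Of 15 genes for catalytic subunits, organizers, activators, maturation factors and small GTPases, 6 had enough reads to be tested, and 0 passed the threshold (edgeR), while 1 passed with the block. Of all tested genes 11.7% passed without the block and 34.2% with it (edgeR). Nox1 had 0 to 4 reads per library and Nox3 had 0 to 1. Cybb, the phagocyte catalytic subunit, was at 0.359 TPM in CTL (transcript share scaled by exon length), where Nox4 was at 106 TPM. Of 8 leukocyte markers, 3 reached 1 CPM, and the sum of all 8 was 9.54 to 22.0 CPM in CTL and 6.53 to 18.0 CPM after TGF-β1. Of the 6 tested, 1 was lower and 0 were higher, with or without the block (edgeR). The lower marker was Csf1r, at a log2 fold change of -1.32 (adjusted p = 0.0238 without the block and 0.000542 with it, edgeR). The part of leukocytes in the values of the oxidase list was not tested. Rac1, a small GTPase and the gene of the oxidase list with the most reads, had a log2 fold change of 0.0018 (adjusted p = 0.989, edgeR).

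Nfe2l2 (ENSMUSG00000015839.6), on the minus strand of chromosome 2 from 75675513 to 75704641, encodes Nrf2, the transcription factor of the antioxidant response. It had 8483, 7647 and 8415 normalized counts in CTL replicates 1, 2 and 3, and 5915, 5050 and 6713 after TGF-β1. All treated cultures were below all CTL cultures, and replicate 2 was lowest in both groups. The mean fell from 8182 ± 464 (SD, n = 3) to 5893 ± 832 (SD, n = 3), a log2 fold change of -0.47 (SE 0.11, adjusted p = 0.0425, edgeR). Within pairs the log2 ratios were -0.52, -0.60 and -0.33, and the block gave an adjusted p of 0.000563 (edgeR). Among the unblocked fits that left out 1 culture, the call remained only without TGF-β1 replicate 3 (adjusted p = 0.0349, edgeR), and it also remained without both replicate 2 cultures (adjusted p = 0.017, edgeR). Leaving out CTL replicate 1, 2 or 3 gave adjusted p-values of 0.162, 0.0651 and 0.103, and leaving out TGF-β1 replicate 1 or 2 gave 0.135 and 0.057 (edgeR).

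Keap1 (ENSMUSG00000003308.13, chromosome 9, 21229730 to 21239361, minus strand) encodes the adaptor that marks Nrf2 for degradation. Its normalized counts spanned 1522 to 1623 in CTL and 1441 to 1519 after TGF-β1, so the groups met without overlapping. The log2 fold change was -0.09 (SE 0.05, adjusted p = 0.288 without the block and 0.18 with it, edgeR). An antisense gene, Gm16754, covers 510 bp of the Keap1 exons, and whether the counting used strand is not given in the sources used here. In counts per kb of exon, log2 ratios of Nfe2l2 to Keap1 were 2.69, 2.58 and 2.77 in CTL replicates 1, 2 and 3 and 2.31, 2.04 and 2.53 after TGF-β1. The groups did not overlap, and the linear ratio went from 6.42 to 4.89 (two-sided exact permutation test, p = 0.1, adjusted p = 0.15 over the 3 ratios tested).

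Of 11 genes for partners and regulators of Nrf2, 11 were tested, 1 was higher and 1 was lower (edgeR), and with the block 3 were higher and 2 lower. These shares were 18.2% without the block and 45.5% with it, against 11.7% and 34.2% of all tested genes. The genes called without the block were both small Maf proteins, the obligate DNA-binding partners of Nrf2. Mafg rose from 4175 ± 194 to 4853 ± 94.8 normalized counts (SD, n = 3 each), a log2 fold change of 0.22 (adjusted p = 0.0423, edgeR). Maff fell from 3067 ± 235 to 2162 ± 176 (SD, n = 3 each), a log2 fold change of -0.50 (adjusted p = 0.0173, edgeR). Among the unblocked fits that left out 1 culture, Mafg was called in 0 of 6 (adjusted p = 0.0838 to 0.15) and Maff in 4 of 6 (edgeR). Per exon length, the mean level of Maff was 147 TPM and that of Mafg 92.6 TPM in CTL, and they were 99.7 and 103 TPM after TGF-β1. Sqstm1, with the most reads of the list, encodes the autophagy receptor p62 that binds KEAP1 and had a log2 fold change of 0.23 (adjusted p = 0.213 without the block and 0.0168 with it, edgeR).

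**Figure D2:**
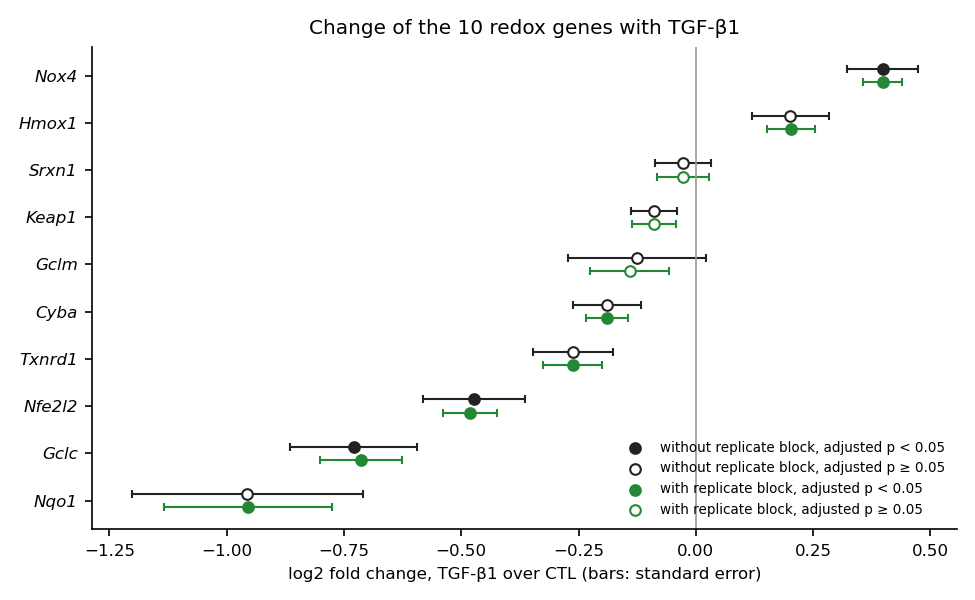
Log2 fold change of TGF-β1 over CTL (horizontal axis) for each of the 10 genes, with bars for the standard error, from edgeR without the replicate block (black) and with it (green); filled points have an adjusted p-value under 0.05. Nox4 and Hmox1 lie right of 0, Nqo1, Gclc and Nfe2l2 lie farthest left, and filled points go from 3 genes without the block to 7 with it.

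The antioxidant response element is a short sequence bound by Nrf2 with small Maf proteins, and it was looked for in the promoter windows that RefSeq gives on GRCm38.p6, from 250 bases before to 50 after a start site. Windows were given for 8 of the 10 genes, all but Hmox1 and Gclc. The core was searched as TGACNNNGC, which 12.4% of 32817 promoter windows hold, and as its G form TGAGNNNGC, which 17.7% hold, both on either strand. The AP-1 site TGANTCA, held by 7.81% of windows, can overlap them. Nox4 and Nfe2l2 are shown because they moved in opposite directions, Nqo1 because it had the lowest level and the most negative fold change, and Srxn1 because its window held the most matches while its RNA had a log2 fold change near 0. Capitals mark matches to either form of the response element. The windows are chr7:87246399-87246698 (plus strand) for Nox4, chr2:75704614-75704913 (minus strand) for Nfe2l2, chr8:107403156-107403455 (minus strand) for Nqo1 and chr2:152105274-152105573 (plus strand) for Srxn1.
Nox4: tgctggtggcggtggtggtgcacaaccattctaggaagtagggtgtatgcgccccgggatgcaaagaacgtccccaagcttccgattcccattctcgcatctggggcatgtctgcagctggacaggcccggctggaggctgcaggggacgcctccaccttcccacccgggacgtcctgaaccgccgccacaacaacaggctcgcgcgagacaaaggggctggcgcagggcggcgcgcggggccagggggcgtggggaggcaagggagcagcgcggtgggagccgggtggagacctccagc
Nfe2l2: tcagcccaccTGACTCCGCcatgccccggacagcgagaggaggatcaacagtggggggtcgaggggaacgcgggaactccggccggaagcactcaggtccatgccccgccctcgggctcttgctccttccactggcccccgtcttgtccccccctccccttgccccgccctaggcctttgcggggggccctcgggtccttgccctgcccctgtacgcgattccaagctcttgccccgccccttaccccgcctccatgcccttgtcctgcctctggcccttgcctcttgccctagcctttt
Nqo1: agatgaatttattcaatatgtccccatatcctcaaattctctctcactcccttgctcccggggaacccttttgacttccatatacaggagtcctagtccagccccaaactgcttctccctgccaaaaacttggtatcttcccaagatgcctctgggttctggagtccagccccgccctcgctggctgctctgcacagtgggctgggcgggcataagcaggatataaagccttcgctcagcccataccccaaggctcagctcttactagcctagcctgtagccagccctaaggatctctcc
Srxn1: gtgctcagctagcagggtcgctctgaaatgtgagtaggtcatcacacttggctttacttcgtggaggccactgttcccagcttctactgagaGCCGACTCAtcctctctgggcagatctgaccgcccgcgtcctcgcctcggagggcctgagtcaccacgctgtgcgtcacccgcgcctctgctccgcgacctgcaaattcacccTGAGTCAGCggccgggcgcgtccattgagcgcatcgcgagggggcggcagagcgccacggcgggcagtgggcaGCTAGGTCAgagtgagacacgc
The Nfe2l2 window held 1 core match, TGACTCCGC, starting 240 bases before the start site. The Srxn1 window held a core match on the minus strand, GCTAGGTCA, 29 bases into the transcript, and the G form as GCCGACTCA from base -158 and TGAGTCAGC from base -45. The latter overlaps an AP-1 match, TGAGTCA, and a second AP-1 match lies at -102. Of the windows not printed, that of Gclm held GCACCGTCA from -134 and 1 of the Txnrd1 windows held GCTTTGTCA from -92. Windows of 4 genes, Nox4, Cyba, Keap1 and Nqo1, held neither form. A match is a string of letters and was not measured as a bound site, and elements outside these windows were not searched.

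Hmox1 (ENSMUSG00000005413.7, chromosome 8, 75093621 to 75100589, plus strand) encodes heme oxygenase 1, which breaks heme into biliverdin, iron and carbon monoxide. Its normalized counts were 969, 913 and 1075 in CTL replicates 1, 2 and 3 and 1122, 1070 and 1207 after TGF-β1. The groups overlapped narrowly, since CTL replicate 3 was above TGF-β1 replicate 2, but each treated culture was above its same-numbered control, at log2 ratios of 0.21, 0.23 and 0.17. The means were 986 ± 82.2 and 1133 ± 69.3 (SD, n = 3 each), a log2 fold change of 0.20 (SE 0.08, adjusted p = 0.168 without the block and 0.0167 with it, edgeR).

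Nqo1 (ENSMUSG00000003849.8, chromosome 8, 107388225 to 107403206, minus strand) encodes a quinone reductase that is often used as a readout of Nrf2. It was sparse here, with 51, 71 and 45 reads in CTL replicates 1, 2 and 3 and 23, 35 and 28 after TGF-β1. In normalized counts these were 49.3, 68.3 and 49.1 against 23.4, 36.3 and 26.3. Each treated culture was below each CTL culture, and replicate 2 was highest in both groups. The log2 fold change of -0.96 was the most negative of the 10 genes, with a standard error of 0.25 and an adjusted p-value of 0.0574 (edgeR). The adjusted p was 0.0048 with the block and 0.0446 without both replicate 2 cultures (edgeR), and DESeq2 gave 0.0386. Nqo1 was not called in any of the 6 unblocked fits without 1 culture (adjusted p = 0.055 to 0.175, edgeR), nor without both replicate 1 cultures (0.41) or both replicate 3 cultures (0.197).

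Gclc (ENSMUSG00000032350.8, chromosome 9, 77754535 to 77794485, plus strand) encodes the catalytic subunit of glutamate-cysteine ligase, the rate-limiting enzyme of glutathione synthesis. It had 3758, 3742 and 2678 normalized counts in CTL replicates 1, 2 and 3 and 2101, 2052 and 1987 after TGF-β1. The treated cultures lay close together and below all CTL cultures, while CTL replicate 3 was well under the other CTL cultures. The mean fell from 3393 ± 619 to 2047 ± 57.6 (SD, n = 3 each), a log2 fold change of -0.73 (SE 0.14, adjusted p = 0.0254, edgeR). The block gave a log2 fold change of -0.71 with an adjusted p of 0.0011 (edgeR). Unblocked fits gave an adjusted p of 0.00377 when CTL replicate 3 was left out, and of 0.102 and 0.0613 when CTL replicate 1 or 2 was (edgeR). Leaving out TGF-β1 replicate 1, 2 or 3 gave 0.093, 0.064 and 0.0744 (edgeR).

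Gclm (ENSMUSG00000028124.14, chromosome 3, 122245557 to 122270732, plus strand) encodes the modifier subunit of the same ligase. Its normalized counts were 3338, 2967 and 3128 in CTL replicates 1, 2 and 3 and 3174, 2238 and 3237 after TGF-β1. The groups overlapped, and TGF-β1 replicate 2 alone was far below the rest. The log2 fold change was -0.12 (SE 0.15, adjusted p = 0.633 without the block and 0.248 with it, edgeR), and without TGF-β1 replicate 2 it was 0.023. Other annotated genes overlap 4.71% (Gm17494, opposite strand) and 3.88% (Gm6061, a pseudogene on the same strand) of the Gclm exons. In counts per kb of exon, log2 ratios of Gclc to Gclm were 0.91, 1.08 and 0.52 in CTL replicates 1, 2 and 3 and 0.15, 0.61 and 0.036 after TGF-β1. TGF-β1 replicate 2 was above CTL replicate 3, so the groups overlapped, although the ratio was lower within each same-numbered pair. The linear ratio was 1.78 in CTL and 1.20 after TGF-β1 (two-sided exact permutation test, p = 0.2, adjusted p = 0.2 over the 3 ratios tested).

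**Figure D3:**
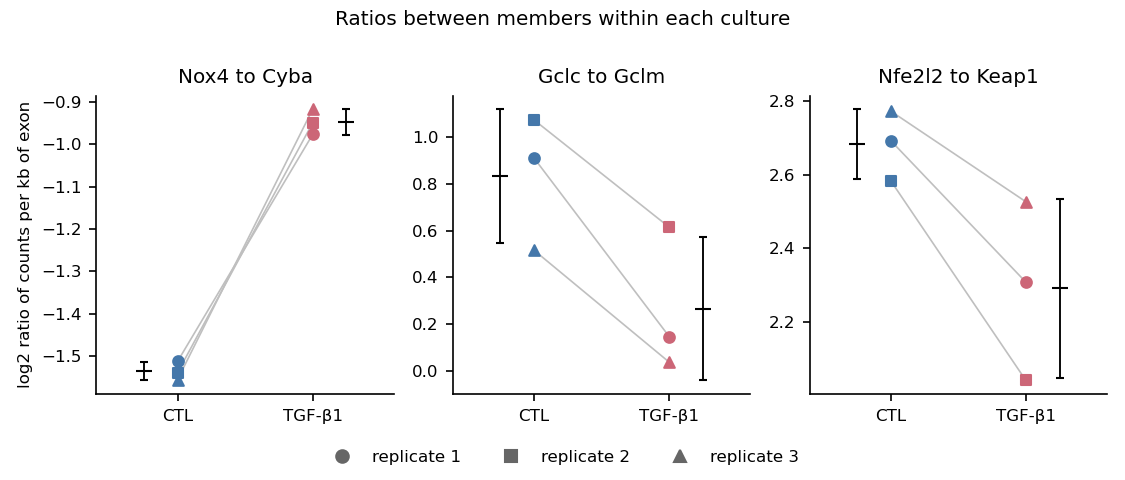
Log2 ratio of counts per kb of exon (vertical axes, which do not start at 0) of Nox4 to Cyba, Gclc to Gclm and Nfe2l2 to Keap1 in each culture, with lines joining same-numbered cultures and bars for the mean ± SD. The Nox4 to Cyba ratio went up in all 3 pairs, from a mean of -1.54 to -0.95, and the other ratios went down in all 3 pairs, but Gclc to Gclm overlapped between groups.

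Txnrd1 (ENSMUSG00000020250.9, chromosome 10, 82833951 to 82897712, plus strand) encodes the cytosolic thioredoxin reductase. Its normalized counts were 10546, 12093 and 10682 in CTL replicates 1, 2 and 3 and 8548, 9158 and 10075 after TGF-β1. The groups did not overlap, with TGF-β1 replicate 3 closest to the CTL cultures. The log2 fold change was -0.26 (SE 0.09, adjusted p = 0.104 without the block and 0.0148 with it, edgeR). Srxn1 (ENSMUSG00000032802.8, chromosome 2, 152105516 to 152111376, plus strand) encodes sulfiredoxin, which restores overoxidized peroxiredoxins. Its normalized counts were 1383 to 1508 in CTL and 1359 to 1483 after TGF-β1, and the ranges overlapped almost entirely. The log2 fold change was -0.03 (SE 0.06, adjusted p = 0.804 without the block and 0.743 with it, edgeR), and it was 0.036 without both replicate 2 cultures and 0.0087 without CTL replicate 2.

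Levels of different genes were compared as TPM, which divides reads by exon length. All annotated exons of a gene were used for its length, so the order of the genes depends on that choice. In CTL cultures Cyba was highest at 308 ± 19.4 TPM, followed by Nfe2l2 at 268 ± 14.3 and Txnrd1 at 195 ± 15.9 (SD, n = 3 each), and the ranges of these neighbours did not overlap. Gclc at 112 ± 21.2 and Nox4 at 106 ± 6.45 TPM overlapped with each other. Hmox1 (70.1 ± 5.31 TPM), Srxn1 (63.5 ± 3.01 TPM) and Gclm (62.2 ± 3.72 TPM) formed an overlapping group, above Keap1 at 41.8 ± 1.61 TPM. Nqo1 was far below the rest, at 4.45 ± 0.91 TPM. After TGF-β1, Nox4 stood at 135 ± 11.7 TPM, after Txnrd1, and no longer overlapped with Gclc at 65.0 ± 1.77 TPM. Cyba, at 260 ± 21.4 TPM, stayed first and Nqo1, at 2.20 ± 0.476 TPM, last.

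**Figure D4:**
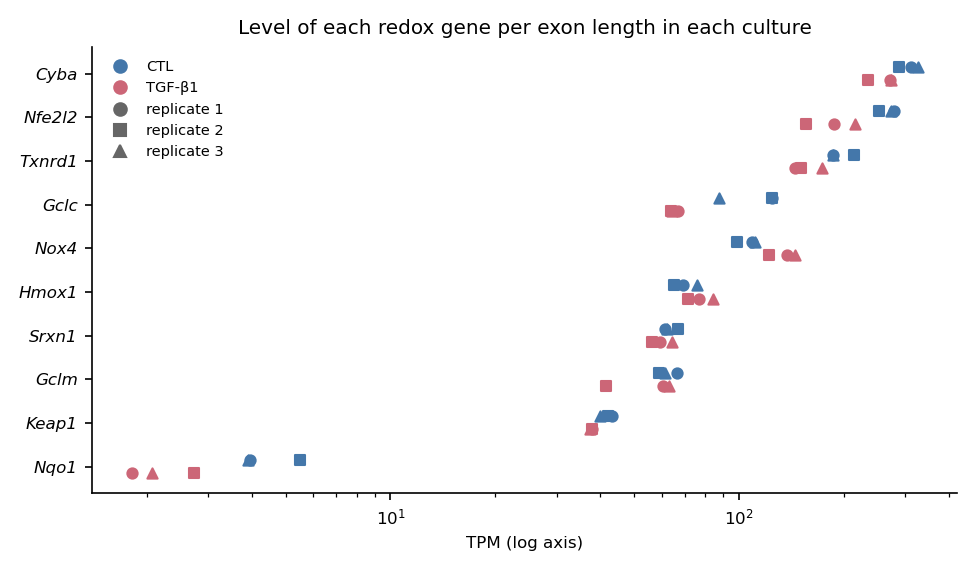
TPM (horizontal log axis) of each gene in each of the 3 CTL (blue) and 3 TGF-β1 (red) cultures, with genes in the order of their CTL means. Cyba is highest and Nqo1 lowest in both groups, and the Nox4 and Gclc points overlap in CTL but lie apart after TGF-β1.

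The wider pathways were read from 8 lists that hold 102 further genes, of which 86 were tested and 16 were too low, with at most 16 reads in any library. Of the 86 genes, 4 rose and 12 fell, which is 18.6% against 11.7% of all tested genes (edgeR). With the block 16 rose and 30 fell, 53.5% against 34.2%. The lists were chosen with earlier results of these data known, so these shares describe the lists and do not test for enrichment. The median log2 fold change of the 86 genes was -0.063. Their 16 calls without the block depended on replicate 1: 3 kept an adjusted p-value under 0.05 without CTL replicate 1, 1 without TGF-β1 replicate 1, and 9 to 12 without any other single culture, with no change of sign. With the block, which draws on the pairs, all 16 list genes had adjusted p-values of at most 0.0129 (edgeR). Without both cultures of replicate 1, 2 or 3, 0, 11 and 5 of the 16 kept their call, while 0, 2374 and 285 of all tested genes were called.

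Of 24 tested glutathione genes, 1 was higher and 4 were lower (20.8%), and 5 were higher and 9 lower with the block (58.3%). Of all tested genes 11.7% were called without the block and 34.2% with it (edgeR). Gstm1, a mu class glutathione S-transferase that conjugates electrophiles, had 2219, 2408 and 2179 normalized counts in CTL replicates 1, 2 and 3 and 516, 420 and 652 after TGF-β1. Its log2 fold change of -2.10 (SE 0.16, adjusted p = 0.00318, edgeR) stayed past the threshold whichever single culture was left out. Gstm2 fell from 438 ± 91.2 to 165 ± 16.8 normalized counts and Gstm5 from 855 ± 20.8 to 654 ± 32.2 (SD, n = 3 each; adjusted p = 0.00833 and 0.0161, edgeR). These mu class genes are related in sequence, and reads that fit several places were not counted, so their levels are uncertain. Mgst1, a membrane-bound transferase, fell from 857 ± 4.16 to 430 ± 104 (SD, n = 3 each), a log2 fold change of -0.99 (adjusted p = 0.0182, edgeR). Slc3a2, the heavy chain of the cystine importer, rose with a log2 fold change of 0.22 (adjusted p = 0.0422, edgeR). It was called in 0 of 6 unblocked fits without 1 culture (adjusted p = 0.0633 to 0.152, edgeR). Gpx3, a secreted peroxidase with the most reads of the list, had a log2 fold change of -0.08 (adjusted p = 0.866, edgeR). In the same comparison 2 of 8 tubule epithelium markers (Cdh16 and Pax8) and 2 of 4 tested proximal markers (Lrp2 and Aqp1) fell, and 0 of either list rose (edgeR). The others did not pass, among them Krt8, Krt18 and Cubn at log2 fold changes of 0.06, 0.12 and 0.09. With the block, 6 of 8 tubule epithelium markers and 3 of 4 tested proximal markers were lower, and 0 of either list were higher (edgeR). Of all tested genes, 19.1% were lower with the block (edgeR). The summed proximal markers were 79.6 to 96.2 CPM in CTL and 34.3 to 48.4 CPM after TGF-β1. The part of tubule cell identity in the transferase values was not tested.

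Of 18 thioredoxin, peroxiredoxin and glutaredoxin genes, 0 were higher and 2 were lower, and with the block 4 were higher and 5 lower (edgeR). The 11.1% called without the block was close to the 11.7% of all tested genes. With the block 50% were called, against 34.2% of all tested genes. The lower genes were the other thioredoxin reductases. Txnrd3, prominent in testis, fell from 871 ± 96.6 to 481 ± 48.0 normalized counts (SD, n = 3 each), a log2 fold change of -0.86 (adjusted p = 0.0102, edgeR). Txnrd2, the mitochondrial form, had a log2 fold change of -0.34 (adjusted p = 0.0418, edgeR). In the unblocked fits without 1 culture Txnrd3 was called in 4 of 6 and Txnrd2 in 0 of 6 (edgeR). Prdx1, a cytosolic peroxiredoxin with the most reads of the list, had a log2 fold change of 0.10 (adjusted p = 0.437, edgeR). Of the 4 genes that remove superoxide and hydrogen peroxide, 0 passed (edgeR), and 2 were lower with the block (50%, against 34.2% of all tested genes). Catalase (Cat), with the most reads of them, had a log2 fold change of 0.02 (adjusted p = 0.881, edgeR), which was -0.055 with libraries scaled by their totals only. The genes lower with the block, named after their values were seen, were the mitochondrial Sod2 (log2 fold change -0.19, block adjusted p = 0.0134, edgeR) and the secreted Sod3. Sod3 had 43.5, 89.4 and 25.1 normalized counts in CTL replicates 1, 2 and 3 and 8.13, 19.7 and 12.2 after TGF-β1 (log2 fold change -1.98, adjusted p = 0.0754 without the block and 0.00138 with it, edgeR).

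Of all tested genes 11.7% were called without the block and 34.2% with it (edgeR), and each share below stands beside these. Of 6 genes for NADPH supply, 0 were higher and 1 was lower (16.7%), and with the block 0 were higher and 3 lower (50%, edgeR). The gene lower without the block was Tkt, the transketolase of the pentose phosphate pathway with the most reads of the list. Its log2 fold change was -0.30 (adjusted p = 0.0493, edgeR), and it was called in 1 of 6 unblocked fits without 1 culture. Among 6 heme and iron genes 1 was higher and 1 was lower (33.3%), and with the block 1 was higher and 3 lower (66.7%, edgeR). Those called without the block were the subunits of ferritin, the iron store. Ftl1 rose from 23319 ± 2405 to 36377 ± 2003 normalized counts, while Fth1 fell from 11627 ± 1417 to 8637 ± 91.0 (SD, n = 3 each), at log2 fold changes of 0.64 and -0.43 (adjusted p = 0.0122 and 0.0347, edgeR). Both have processed pseudogenes, so reads that fit several places were not counted and their levels are uncertain. For quinone, aldehyde and xenobiotic handling, 11 of 13 genes were tested, and 1 was higher and 3 were lower (36.4%, edgeR). With the block 2 were higher and 6 lower (72.7%, edgeR). Aldh1a1, a retinaldehyde dehydrogenase, had 289, 412 and 186 normalized counts in CTL replicates 1, 2 and 3 and 60.9, 41.4 and 60.1 after TGF-β1, a log2 fold change of -2.45 (adjusted p = 0.011, edgeR). The exporter Abcc4 and the carbonyl reductase Cbr3 fell with log2 fold changes of -1.16 and -0.55 (adjusted p = 0.0221 and 0.0492, edgeR), and the aldo-keto reductase Akr1b8 rose with one of 0.33 (adjusted p = 0.0133, edgeR). In the unblocked fits without 1 culture Abcc4 was called in 3 of 6, Cbr3 in 1 of 6 and Akr1b8 in 4 of 6 (edgeR). Ephx1, an epoxide hydrolase with the most reads of this list, had a log2 fold change of -0.25 (adjusted p = 0.117 without the block and 0.0222 with it, edgeR).

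**Figure D5:**
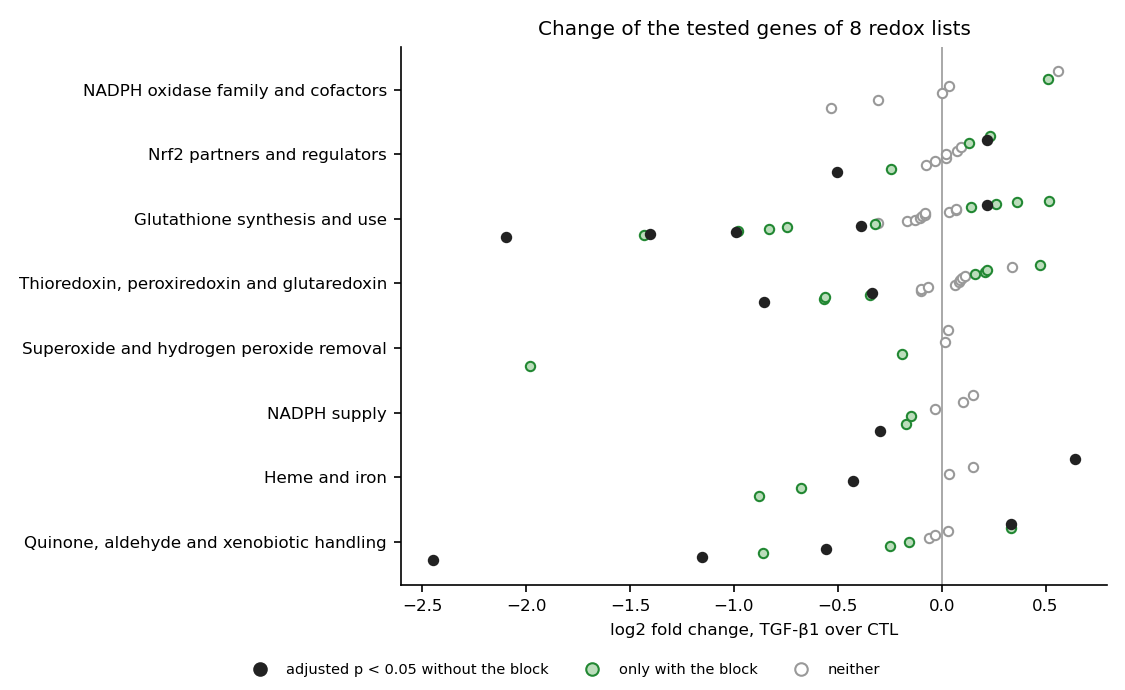
Log2 fold change of TGF-β1 over CTL (horizontal axis) for the 86 tested genes of the 8 lists, 1 point a gene; black points have an adjusted p-value under 0.05 without the replicate block, green points only with it, and open points with neither. The points farthest left are Aldh1a1 (-2.45) and Gstm1 (-2.10), and the black point farthest right is Ftl1 (0.64).

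The genes whose log2 normalized counts followed Nox4 most closely over the 6 cultures were Bcl2l11, Scx, Vav2, Kif26b and Lgr6 (Pearson r of 0.998, 0.996, 0.995, 0.994 and 0.994, among 10909 genes of at least 5 CPM). Those most opposite to it were Atf6b, Efna5, Klhl13, Cdhr1 and Cd109 (r of -0.997, -0.996, -0.996, -0.995 and -0.994). Among the other members, Nqo1 (-0.981) and Gclc (-0.922) were the most opposite and Hmox1 (0.924) the closest, while Keap1 had an r of -0.87, Txnrd1 -0.82, Nfe2l2 -0.66, Cyba -0.48, Srxn1 -0.23 and Gclm -0.069. These correlations run over both groups of 3 cultures, which share libraries and differ in treatment, so they describe these cultures only.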

How the data were processed

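Polyadenylated RNA of 3 CTL and 3 TGF-β1–treated RTEC cultures was sequenced. The authors trimmed reads with Trim Galore, aligned them to GRCm38 (mm10) with STAR 2.4.1d and counted them per gene with HTSeq 0.6.1, per the labels, and deposited raw counts for each culture without normalization. The annotation release and strand setting are not given in the sources used here. Of all reads listed, 25.4 to 25.9% were assigned to no gene (outside genes, ambiguous or aligned to several places) and were left out. Lines of unassigned reads entered no library size.

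Symbols, positions and union exon lengths came from GENCODE M21. Counts were tested in R 4.3.3 with edgeR 4.0.16 (filterByExpr by group, TMM, robust quasi-likelihood fit, two-sided, Benjamini-Hochberg over 15862 genes, threshold 0.05). Standard errors came from the F statistic. TPM was computed here from the deposited counts. Single values were compared by exact permutation tests. The count models were tested on simulated data first. Floors of 3 counts cover counting error only.

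The study describes no pairing, and the replicate numbers are those of the sample titles. Deviations from the group means correlated at 0.34, 0.684 and 0.572 for same numbers and at -0.617 to 0.215 for different ones. Replicate 1 was matched least clearly, since CTL replicate 1 correlated at 0.34 with TGF-β1 replicate 1 and at 0.215 with TGF-β1 replicate 3. Deviations from a mean of 3 cultures depend on each other, so the outlying replicate 2 shapes all of these values. No pair of libraries matched within sampling noise (chi-square per degree of freedom at least 9.02). Alternatives were the replicate block, DESeq2 1.42.0, limma-voom 3.58.1, RLE, library size only, other count filters, down-sampling, and leaving out each culture or both cultures of a number.

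The members and lists were chosen with earlier results of these data known. Named list genes were those past the threshold, up to 4 for each list and direction at 1 CPM or more, and the gene of each list with the most reads. Genes like Nox4 were the 5 with the highest and the 5 with the lowest r. Some genes of the lists are not reported here.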

Additional observations from a re-analysis of the deposited data

How the results depend on the processing

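Why values moved was not tested. The replicate block was not part of any fit without some cultures. RLE normalization, limma-voom, both other count filters and down-sampling changed the call of none of the 10 members. Of the list genes, Tkt lost its call with limma-voom and down-sampling, Cbr3 with limma-voom, both filters and down-sampling, Mafg, Txnrd2 and Abcc4 with no filter, and Mafg and Slc3a2 with library size only. The block brought Cyba (-0.19), Hmox1 (0.20), Nqo1 (-0.95) and Txnrd1 (-0.26) under the threshold, and gave 2 higher and 5 lower members, 16 and 30 list genes, and 2388 and 3037 of all tested genes in place of 793 and 1061. It changed no other member's call. DESeq2 called Nqo1 (-0.96), 6 list genes higher and 20 lower, and 1201 of all genes higher and 1521 lower. Library size only, which set the median of all genes at -0.077, gave Nox4 0.32, Nqo1 -1.03, Rac1 -0.073 and Cat -0.055, with 0 members higher and 3 lower (Nqo1 now among them), 2 list genes higher and 18 lower, and 508 of all genes higher and 1467 lower. With at least 10 counts in every library Rac1 was at -0.0028. Leaving out 1 culture gave 0.35 to 0.45 for Nox4, -0.58 to -0.38 for Nfe2l2, -0.87 to -0.65 for Gclc, -0.22 to 0.023 for Gclm, -0.064 to 0.0087 for Srxn1, -0.039 to 0.026 for Rac1, -0.26 to 0.20 for Gpx3 and -0.035 to 0.058 for Cat. It gave 0 to 1 members higher and 0 to 1 lower, 0 to 3 list genes higher and 1 to 14 lower, and 109 to 516 of all genes higher and 186 to 807 lower. Without both replicate 1 cultures 0 of all genes, list genes and members were higher or lower (edgeR, 1938 genes at an unadjusted p-value under 0.05), and Nox4, Nfe2l2 and Gclc were at 0.40, -0.45 and -0.67. Without both replicate 3 cultures 95 of all genes were higher and 190 lower, 0 list genes higher and 5 lower, 0 members higher and 1 lower (Gclc), with Nox4 at 0.40, Nfe2l2 at -0.56 and Cat at -0.044. Without both replicate 2 cultures Nqo1 (-0.98) was called and Gclc (-0.66) was not, and Srxn1 was at 0.036, Rac1 at -0.015 and Gpx3 at 0.032. Without division by exon length the log2 ratios in CTL and after TGF-β1 were 1.49 and 2.08 for Nox4 to Cyba, 0.094 and -0.47 for Gclc to Gclm, and 2.38 and 1.98 for Nfe2l2 to Keap1. At 23 to 71 reads, Nqo1 is the member most limited by depth.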
